A study of Danio rerio with 6 samples.

Results

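The proteasome genes described here are the Ensembl genes of the deposited zebrafish tables whose name starts with psm, a letter from a to g and a number. The rule took 57 of 32520 Ensembl genes, and each table also holds 26810 unnamed gene models. The pattern takes psmc3ip and psme3ip1 as well, which are named for proteins that bind a proteasome subunit and are not subunits themselves. Without them 55 genes remain, which lie on 21 chromosomes with 1 gene, psmd2, on an unplaced scaffold of GRCz11.

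The libraries were made from polyadenylated RNA of cells from Tg(mpx:eGFP) zebrafish on day 2, 48 hours post-fertilisation. The morpholino group comprised 3 libraries labelled as znf711 knockdown and treated with znf711 MO, an antisense oligonucleotide that blocks translation or splicing of its target transcript. The control group comprised 3 libraries labelled as WT. All 6 carry the reporter, in which the mpx promoter drives green fluorescent protein, and the labels call the cells mpx+ neutrophils. What the controls received, the strain and the number of embryos behind a library are stated in none of the sources used. The design text speaks of znf711 mutant fish and not of a morpholino, and the groups here follow the sample labels. These call the replicates biological and do not say whether they came from separate clutches, so p-values measure the spread between these libraries.

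The proteasome degrades proteins that carry ubiquitin chains. Its core particle stacks rings of alpha and beta subunits, and the beta subunits psmb5, psmb6 and psmb7 carry the proteolytic sites. A regulatory particle of ATPases and non-ATPase subunits binds ubiquitinated proteins, removes the ubiquitin and threads the protein into the core. In mammals, interferon gamma exchanges the catalytic subunits for inducible forms, which favour peptides for MHC class I molecules, and leukocytes carry such immunoproteasomes without stimulation.

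The total counts were 1629804, 12093109 and 9550796 in morpholino replicates 1 to 3, against 7181804, 9311439 and 7635673 in control replicates 1 to 3. The targeted gene znf711 had 1, 120 and 182 counts in the morpholino libraries, against 348, 134 and 60 counts in the controls, and its groups overlapped. Of the 11 neutrophil markers, 9 passed the filter on low counts, including mpx, while lyz had at most 8 counts in any library and cxcr2 had counts in morpholino replicate 3 alone. The summed neutrophil markers reached 2775, 12755 and 22426 CPM in the morpholino libraries, against 2074, 13284 and 15984 CPM in the controls. CPM here are counts scaled to a common library total with TMM factors, unless said otherwise. Summed erythroid markers were 17508, 12186 and 2225 CPM in the morpholino libraries, against 13428, 5593 and 4157 CPM in the controls. The first replicate of each group thus had the lowest neutrophil and the highest erythroid sum of its group. Most of the erythroid sum was hbae3, at 14089, 7659 and 1445 CPM in the morpholino libraries, against 10344, 3463 and 2871 CPM in the controls. Not every marker followed the sum, and hbbe1.1 was highest in replicate 2 of each group, at 2989 and 1325 CPM. Summed neural markers were 2832, 1917 and 3107 CPM in the morpholino libraries, against 2802, 1550 and 2298 CPM in the controls. Of these sums marcksl1b gave 1034, 1251 and 2652 CPM in the morpholino libraries, against 1319, 1184 and 1755 CPM in the controls. In RNA from whole sorted pools, fewer cells of a type and less RNA per cell cannot be told apart.

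No proteasome gene passed the test between the morpholino and control groups. Of the 57 genes, 48 passed the filter on low counts and 9 did not. Under edgeR's quasi-likelihood test with Benjamini-Hochberg adjustment, 0 of the 48 had an adjusted p under 0.05, against a background of 0% of 16637 rows tested. None of the 48 reached an unadjusted p under 0.05 in edgeR. Of all 16637 rows tested, 174 did, 97 with a higher and 77 with a lower level in the morpholino group. At so small a share, 0 of 48 does not set the proteasome genes apart from other rows. The smallest unadjusted p among the 48 was 0.231, for psma4, with an adjusted p of 0.9999. DESeq2 called 12 rows, 0.0721% of those tested, and limma-voom called 0. Neither called a proteasome gene.

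Log2 fold changes, morpholino over control, were positive for 27 and negative for 21 of the 48 genes. Their median was 0.09, beside -0.12 over all rows tested. A log2 fold change within 0.5 of 0 was found for 34 of the 48, or 70.8%, beside 43.0% of all rows tested. These shares are not matched for level, since the median was 82.0 CPM for the 48 genes and 12.1 CPM for all rows tested. The approximate standard error (SE) of a single gene ranged from 0.44 to 2.07 on the log2 scale, with a median of 0.54, so a doubling of one gene lies within about 2 SE of 0. The 3 genes at or beyond a 2-fold difference were psmb10, psme2 and psmc3ip, and all 3 had a mean under 30 CPM in each group.

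The summed level of the 57 genes was 5248, 5448 and 3303 CPM in the morpholino libraries, against 4260, 4208 and 4455 CPM in the controls. The means were 4666 ± 1185 CPM in the morpholino group and 4308 ± 130 CPM in the control group (SD, n = 3 each). With these TMM factors the control sums lay close together, while the morpholino libraries held both the 2 highest sums and the lowest one. With library totals in their place the controls spread more widely than with TMM factors, and the sums were 4876 ± 1240 CPM in the morpholino group and 4164 ± 821 CPM in the control group, and control replicate 1, at 5110 CPM, was the second highest of the 6 libraries.

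**Figure D1:**
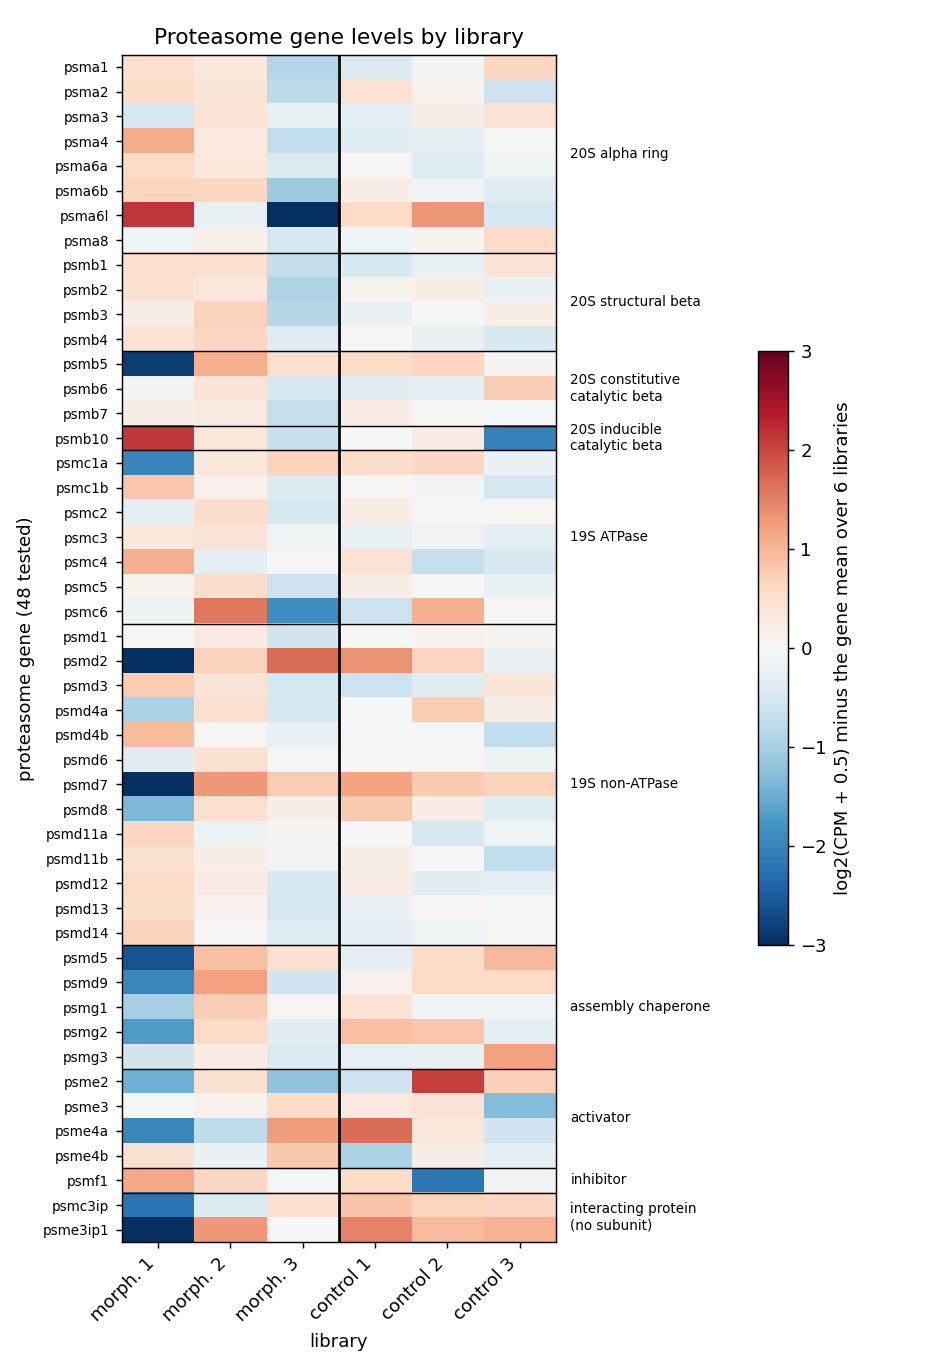
Heat map of the 48 tested proteasome genes, by role (rows) and library (columns, morpholino replicates left of control replicates). Colour is log2(CPM + 0.5) minus the gene's mean over the 6 libraries, and the colour scale ends at 3 in either direction. Values at the low end of the scale are those of psmd2, psmd7 and psme3ip1 in morpholino replicate 1 and of psma6l in morpholino replicate 3, and most core genes of morpholino replicate 3 lie below their mean.

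The alpha ring, which gates entry to the core, is coded by 9 of the genes. Of the 8 tested, 5 had a positive and 3 a negative log2 fold change, with a median of 0.15. psma8 was the most abundant proteasome gene per length, at 233 ± 35.3 FPKM (SD over 6 libraries), the authors' deposited unit of reads per transcript length and library total. It fills the alpha4 position among these genes, although in mammals its name belongs to a form made in the testis. psma8 measured 284, 343 and 216 CPM in the morpholino libraries, against 282, 326 and 461 CPM in the controls, with a log2 fold change of -0.34 ± 0.44 (SE) and an adjusted p of 0.9999 in edgeR. The groups overlapped, and the highest value was in control replicate 3.

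psma4, the alpha3 subunit, had the smallest p of all proteasome genes. It measured 337, 192 and 93.4 CPM in the morpholino libraries, against 122, 129 and 152 CPM in the controls, a log2 fold change of 0.63 ± 0.51 (SE). The morpholino libraries held both its 2 highest values and its lowest. It came to 0.08 once morpholino replicate 1 was left out. The least abundant alpha gene with counts in most libraries was psma6l, another gene for the alpha1 position beside psma6a and psma6b, at 21.1, 3.68 and 0 CPM in the morpholino libraries, against 6.85, 11.7 and 2.89 CPM in the controls. For the alpha5 position, psma5 had no count in any library, and a second row that matches it in position is described further on.

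The 4 structural beta genes had positive log2 fold changes, with a median of 0.18 and a range of 0.04 to 0.50. psmb4, the beta7 subunit, reached 230 ± 83.3 FPKM over the 6 libraries. It measured 282, 323 and 161 CPM in the morpholino libraries, against 210, 180 and 151 CPM in the controls, with a log2 fold change of 0.50 ± 0.45 (SE) and an adjusted p of 0.9999 in edgeR. Morpholino replicate 3 lay within the range of the controls and the other 2 morpholino libraries lay above it. psmb1, the beta6 subunit, measured 254, 256 and 112 CPM in the morpholino libraries, against 134, 159 and 241 CPM in the controls, and here the lowest value was in the morpholino group.

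All 3 constitutive catalytic genes had small negative log2 fold changes, between -0.16 and -0.09. psmb7, which cuts after basic residues, measured 220, 233 and 119 CPM in the morpholino libraries, against 225, 195 and 187 CPM in the controls, with a log2 fold change of -0.09 ± 0.45 (SE). psmb6, which cuts after acidic residues, measured 107, 148 and 82.2 CPM in the morpholino libraries, against 91.4, 93.2 and 189 CPM in the controls. psmb5, which cuts after hydrophobic residues, measured 3.16, 55.7 and 36.3 CPM in the morpholino libraries, against 38.3, 40.9 and 27.7 CPM in the controls. The groups overlapped for all 3 genes. The psmb5 value in morpholino replicate 1 rests on 6 counts.

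Per length, the positions of the core were unequal. Over the 6 libraries alpha4 (psma8), beta7 (psmb4), beta6 (psmb1), beta3 (psmb3) and beta2 (psmb7) averaged 233, 230, 203, 183 and 160 FPKM. The lowest with counts were beta5 (psmb5) at 25.3 FPKM and alpha2 (psma2) at 27.5 FPKM, while alpha5 (psma5) had no count. The beta5 and alpha5 values cover the named rows alone. Second rows that match psmb5 and psma5 in position, described further on, averaged 74.8 and 23.9 FPKM. In the assembled particle each position is filled equally, so these values describe mapped RNA and not the particle. For 30 of the genes the deposited FPKM exceeded the count per listed length, by up to 3.87 times, so the length behind the values is not always the listed one. psma2 shares bases with atad2 on the same strand and with mrpl32 on the other, and the sources do not say how the counting treated shared bases.

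Of the 7 inducible catalytic genes, psmb10 alone passed the filter on low counts. psmb10 codes for the inducible form of psmb7. It measured 53.8, 15.3 and 7.44 CPM in the morpholino libraries, against 12.1, 14.5 and 2.56 CPM in the controls. Morpholino replicate 1 stood above the other 5 libraries, and the other 2 morpholino libraries lay within or close to the range of the controls. The log2 fold change was 1.38 ± 1.2 (SE), the largest positive value among the 48 genes, with an unadjusted p of 0.266 and an adjusted p of 0.9999 in edgeR. Leaving out morpholino replicate 1 brought it to 0.21, and leaving out control replicate 3 to 0.81.

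Set against its constitutive partner, psmb10 made up 12.5%, 3.70% and 3.54% of the summed FPKM of psmb10 and psmb7 in the morpholino libraries, against 3.04%, 4.16% and 0.796% in the controls. Apart from morpholino replicate 1, psmb7 thus made up over 95% of the pair in every library.

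The other inducible genes had hardly any counts. psmb9a, psmb11a, psmb11b and psmb13a had none in any library. psmb8a, the inducible form of psmb5, had 1 count in morpholino replicate 2 and none elsewhere, and psmb12 had 1 count each in control replicates 1 and 2. On counting error alone, a count of 0 allows up to 3 counts per library. This comes to 1.84 CPM of all counts in morpholino replicate 1 and to 0.248 to 0.418 CPM in the other 5. The true limit can be higher. psmd7, with 0 counts in morpholino replicate 1, had 20.4 to 31.3 CPM with TMM factors in the other 5. psmb11a and psmb11b are named for the thymus form of the beta5 subunit.

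psmb8a, psmb9a, psmb12 and psmb13a lie within GRCz11 chromosome 19, 7105838 to 7144585, together with the peptide transporter gene tap2a, which also had no count in any library. psmb8a and psmb13a share most of their span on the same strand and enclose the other 3 genes on the opposite strand. In zebrafish this region carries different gene sets in different haplotypes, and the strain of these fish is not stated. Whether reads from the cluster were lost to its overlaps or to another haplotype was not tested.

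**Figure D2:**
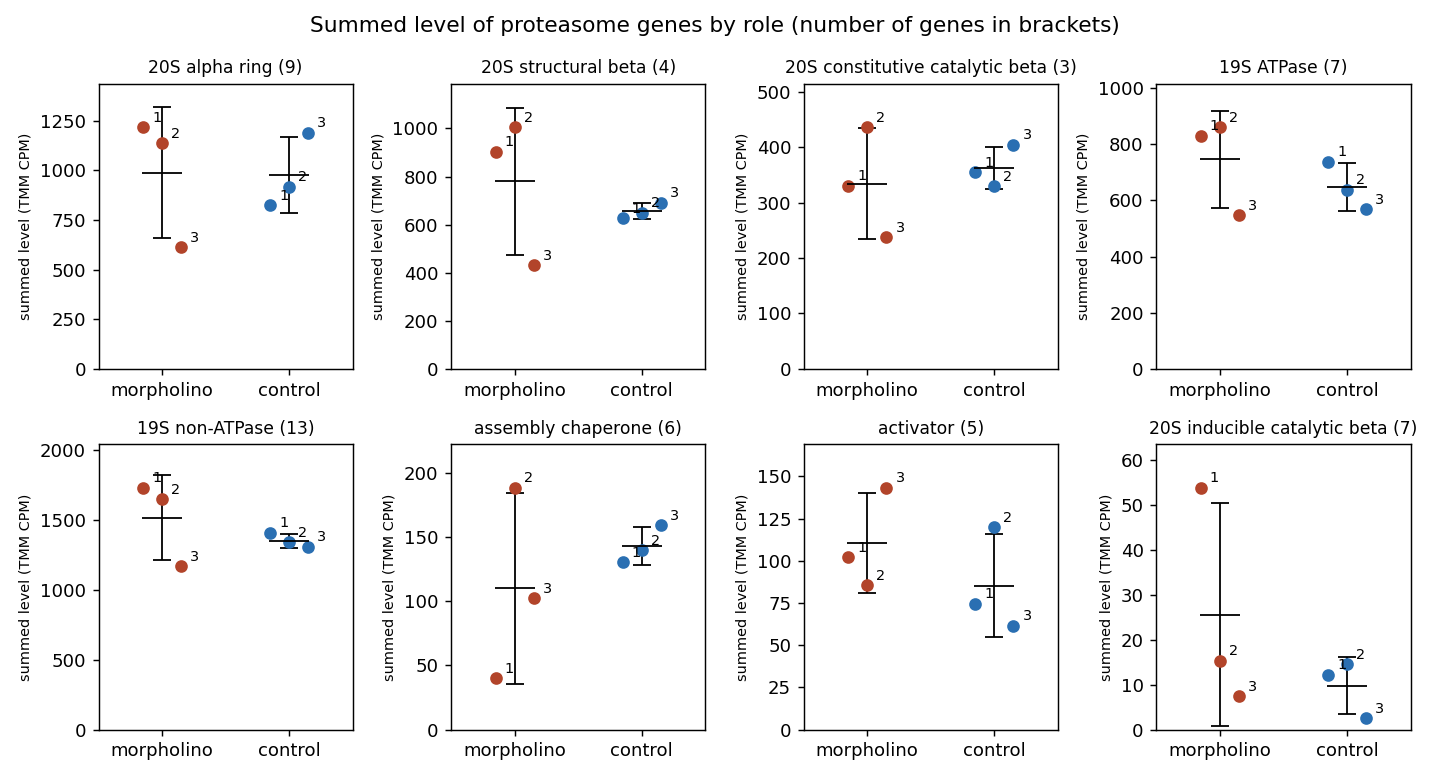
Summed CPM of the proteasome genes of each role in each library, morpholino libraries left of control libraries, with the replicate number at each point, the group mean as a line and its SD as a bar. For the alpha ring, the structural and constitutive catalytic beta genes and both parts of the regulatory particle, the morpholino libraries spread more widely than the controls and morpholino replicate 3 is the lowest of all 6. With library totals in place of TMM factors, control replicate 3 is the lowest for both parts of the regulatory particle and the ATPase sums of the controls spread more widely than those of the morpholino libraries. Assembly chaperones are lowest in morpholino replicate 1 with either scaling.

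The 7 ATPase genes of the regulatory particle summed to 831, 861 and 547 CPM in the morpholino libraries, against 738, 638 and 568 CPM in the controls. The log2 fold change was positive for 5 and negative for 2 of them, with a median of 0.16. psmc5, the most abundant ATPase gene per length at 113 ± 33.4 FPKM over the 6 libraries, measured 184, 246 and 109 CPM in the morpholino libraries, against 194, 171 and 147 CPM in the controls. Its log2 fold change was 0.08 ± 0.46 (SE). psmc2 measured 111, 192 and 96.1 CPM in the morpholino libraries, against 155, 130 and 138 CPM in the controls, and both genes overlapped between the groups. The lowest ATPase was psmc6, at 8.96, 31.1 and 2.38 CPM in the morpholino libraries, against 6.27, 21.5 and 10.3 CPM in the controls.

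The 13 non-ATPase genes summed to 1731, 1651 and 1170 CPM in the morpholino libraries, against 1409, 1344 and 1310 CPM in the controls. Of these, 8 had a positive and 5 a negative log2 fold change, with a median of 0.17. psmd3, a scaffold subunit of the lid, was the most abundant per length at 124 ± 55.6 FPKM over the 6 libraries. It measured 364, 278 and 147 CPM in the morpholino libraries, against 136, 172 and 275 CPM in the controls, with a log2 fold change of 0.44 ± 0.48 (SE). psmd6, another lid subunit, measured 120, 203 and 144 CPM in the morpholino libraries, against 149, 152 and 134 CPM in the controls. Its log2 fold change was 0.10 ± 0.45 (SE).

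The steadiest gene across the 6 libraries was psmd1, the base subunit that binds ubiquitin receptors, with a coefficient of variation of 17.0%. It measured 259, 296 and 170 CPM in the morpholino libraries, against 253, 267 and 261 CPM in the controls. The coefficient of variation had a median of 38.8% over the 48 tested genes, beside 72.2% over the Ensembl rows tested. The proteasome genes were also more abundant, with a median of 82.0 CPM beside 15.8 CPM, and counting error is smaller at higher levels. The least steady was psme2, at 109%.

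Assembly chaperones bind part-built particles and leave the finished one. Of 6 such genes, 5 were tested, and 4 of the 5 had negative log2 fold changes, with a median of -0.34. They summed to 40.1, 188 and 102 CPM in the morpholino libraries, against 130, 140 and 159 CPM in the controls, and morpholino replicate 1 was the lowest of the 6. psmd9, a chaperone of the ATPase ring and with psmg1 the most abundant of them per length, measured 4.75, 46.9 and 12.8 CPM in the morpholino libraries, against 21.7, 29.95 and 30.3 CPM in the controls. Its log2 fold change was -0.34 ± 0.98 (SE), and was 0.12 without morpholino replicate 1. psmg1, which helps to build the alpha ring, measured 14.8, 49.8 and 30.9 CPM in the morpholino libraries, against 40.3, 27.8 and 27.6 CPM in the controls, with a log2 fold change of 0.00 ± 0.78 (SE). psmd10, also a chaperone of the ATPase ring, had 1 count in morpholino replicate 2, against 1 count in control replicate 1 and 4 counts in control replicate 2.

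Activators open the core in place of the regulatory particle. psme1 and psme2 code for the pair that is induced by interferon in mammals, psme3 for a nuclear form, and psme4a and psme4b for a large nuclear form. psme4b measured 69.1, 44.1 and 88.0 CPM in the morpholino libraries, against 25.8, 57.5 and 41.2 CPM in the controls, a log2 fold change of 0.69 ± 0.62 (SE). psme3 measured 32.2, 35.5 and 49.8 CPM in the morpholino libraries, against 40.9, 43.2 and 13.1 CPM in the controls. Each overlapped between the groups.

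psme2 measured 1.05, 5.34 and 1.33 CPM in the morpholino libraries, against 2.32, 17.3 and 6.41 CPM in the controls. Its log2 fold change of -1.72 ± 1.76 (SE) was the largest negative value among the 48 genes, with an unadjusted p of 0.342 and an adjusted p of 0.9999 in edgeR. It was -0.74 without control replicate 2, which holds the highest value, and -2.90 without morpholino replicate 2. psme4a measured 0, 0.645 and 4.1 CPM in the morpholino libraries, against 5.69, 1.93 and 0.802 CPM in the controls, with a log2 fold change of -0.78 ± 2.07 (SE), and it was positive, at 0.23, without control replicate 1. psme1 had no count in any library.

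psmf1, an inhibitor of the core, measured 34.3, 23.7 and 14.7 CPM in the morpholino libraries, against 22.4, 2.90 and 14.1 CPM in the controls. The log2 fold change was 0.88 ± 1.11 (SE), with an adjusted p of 0.9999 in edgeR, and 0.34 without control replicate 2, which held the lowest value.

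**Figure D3:**
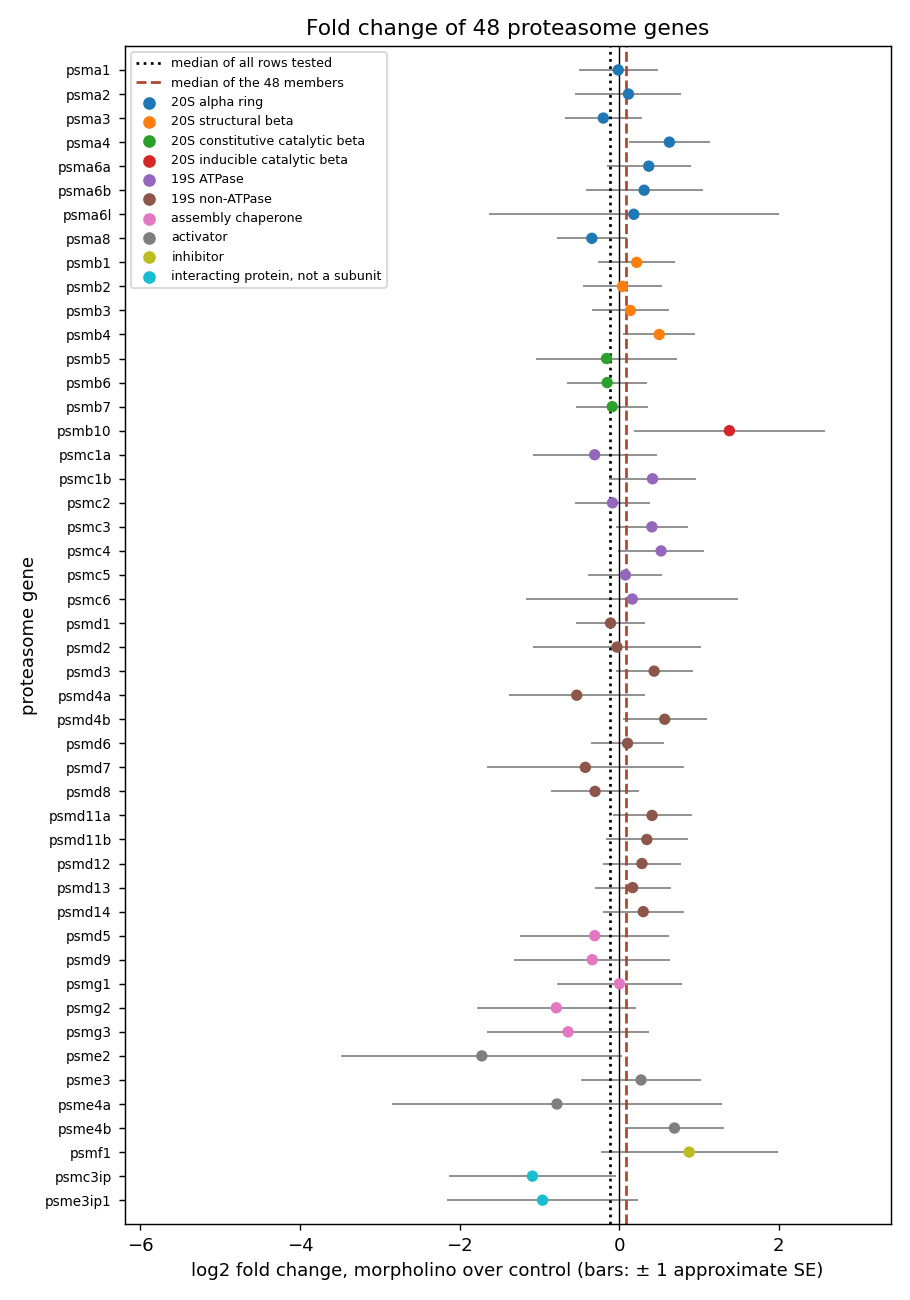
Log2 fold change of each of the 48 tested proteasome genes, morpholino over control, coloured by role, with its approximate SE as a bar and dotted and dashed lines at the median of all rows and of the 48 genes. All genes but psmb10, psme2 and psmc3ip lie within 1 of 0, and the bars are longest for genes of low level such as psme4a and psma6l.

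Of the 48 genes, 0 had every morpholino library above every control, beside 2.09% of all rows tested. Only psmc3ip had every morpholino library below every control, beside 5.35% of all rows, and it is one of the 2 genes that are not subunits. In mammals psmc3ip acts in meiotic recombination. It measured 3.16, 12.1 and 23.1 CPM in the morpholino libraries, against 30.3, 26.6 and 25.3 CPM in the controls, with a log2 fold change of -1.09 ± 1.05 (SE), an unadjusted p of 0.315 and an adjusted p of 0.9999 in edgeR. With library totals in place of TMM factors it was at 3.68, 10.8 and 25.3 CPM in the morpholino libraries, against 36.3, 23.6 and 20.7 CPM in the controls, so that the groups overlapped. Connective tissue markers, also scaled by TMM, summed to 752, 911 and 713 CPM in the morpholino libraries, against 1537, 1481 and 1147 CPM in the controls, and 6 of the 10 had every morpholino library below every control, though none was called. Endothelial markers summed to 106, 290 and 178 CPM in the morpholino libraries, against 316, 363 and 324 CPM in the controls, and 2 of the 9 tested were below in this way. Macrophage and muscle markers had 1 such gene each. Neural and muscle markers had 1 gene each with every morpholino library above every control. The part of any of these markers in the psmc3ip value was not tested. psme3ip1, the other gene that is not a subunit, measured 0, 33.1 and 13.1 CPM in the morpholino libraries, against 37.8, 25.6 and 27.6 CPM in the controls.

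The spread within the morpholino group had its own pattern over the genes. Each gene's log2 level was set against its mean over the 3 control libraries, so the controls centre near 0 by construction. The median deviation of the tested genes was 0.15, 0.31 and -0.33 in morpholino replicates 1 to 3, against 0.14, 0.01 and -0.11 in control replicates 1 to 3. With TMM factors morpholino replicates 2 and 3 thus lay on opposite sides of the controls. With library totals both lay within the range of the controls. The medians with that scaling, compared among themselves only, were 0.37, 0.21 and -0.28 in morpholino replicates 1 to 3, against 0.31, -0.12 and -0.39 in control replicates 1 to 3. The median log2 fold change of the 48 genes was 0.32 without morpholino replicate 3, beside -0.37 over all rows tested. Without morpholino replicate 2 it was -0.25, beside -0.31 over all rows tested. Morpholino replicate 3 also had the highest neutrophil sum and the lowest erythroid sum of the 6 libraries, and the part of these cells in the result was not tested.

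Morpholino replicate 1, the shallowest library, was far below the others for some genes, all of them with a median under 50 CPM in the other 5 libraries. In morpholino replicate 1, 10 of the 48 genes, or 20.8%, lay under 0.25 times their median in the other 5 libraries, with 0.5 CPM added to both, beside 49.3% of all rows tested. Of the 14 genes with a median of 25 to 50 CPM in the other 5 libraries, 8 were under this limit, or 57.1%, beside 36.2% of all rows at that level. Of the 8 genes below 25 CPM, 2 were, or 25%, beside 59.3% of rows. None of the 26 genes above 50 CPM was, beside 24.8% of all rows at 50 to 100 CPM and 13.8% of rows above 100 CPM. Among the 10 were psmd7, a lid subunit, with 0 counts, psmd2 with 1 count and psmd5, a chaperone of the ATPase ring, with 6 counts. psmb5 was among them too. In this library, second rows described further on held 99.8% of the joined counts for psmd2 and 94.6% for psmb5. Another 6 genes, or 12.5%, were above 2 times their median in the other 5, beside 16.4% of all rows tested. They were psma6l, psmb10, psma4, psmc4, psmf1 and psmd3. With the first replicate of each group left out, the median log2 fold change of the 48 genes was 0.11, beside 0.02 over all rows tested, and none was called.

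**Figure D4:**
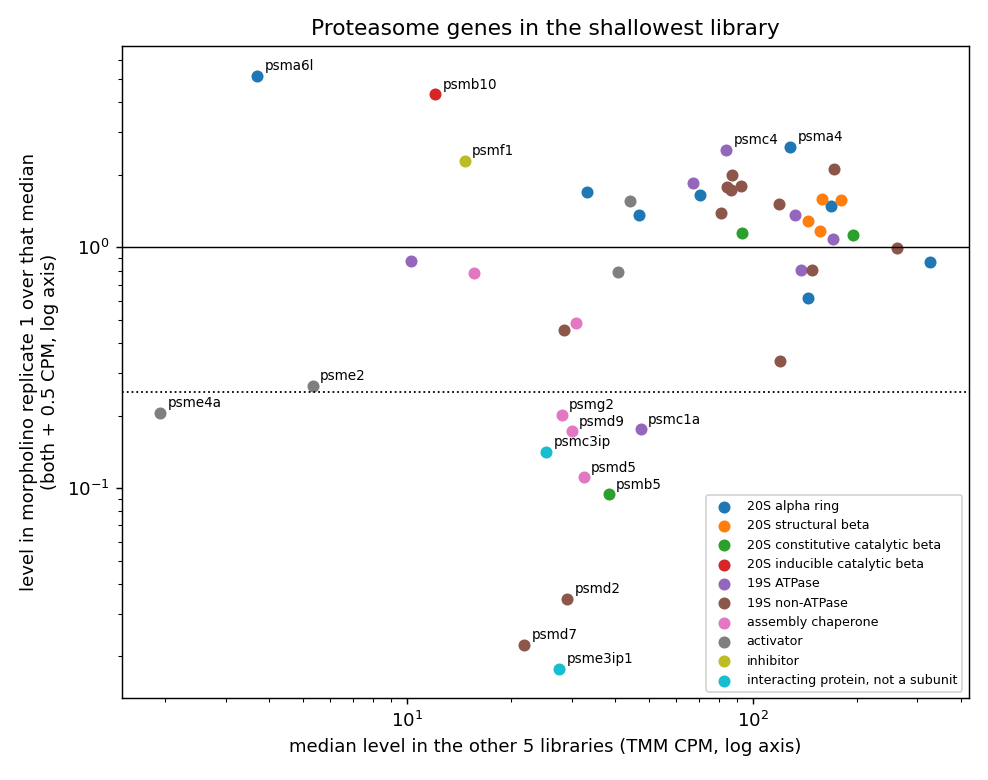
Ratio of the level in morpholino replicate 1 to the median of the other 5 libraries, both with 0.5 CPM added (vertical, log scale), against that median in CPM (horizontal, log scale), for the 48 tested proteasome genes coloured by role. The dotted line marks a ratio of 0.25. The 10 genes under 0.25 times lie below 50 CPM, and the genes above 50 CPM lie between 0.337 and 2.62 times the median of the others.

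Some subunits are coded by duplicated genes, and within most pairs one copy carried more of the counts. psmc1a made up 5.98%, 34.5% and 50.2% of the counts of psmc1a and psmc1b in the morpholino libraries, against 39.2%, 43.2% and 36.7% in the controls. Such shares of counts are not corrected for length. In FPKM the psmc1a share ranged from 3.70% to 37.9% over all libraries. In morpholino replicate 1 the share of counts rests on 15 and 236 counts, with an exact 95% binomial interval of 3.38% to 9.67%, which covers counting error only. The mean share of counts was 30.2 ± 22.4% in the morpholino group and 39.7 ± 3.27% in the control group (SD, n = 3 each). The controls thus lay close together and the morpholino libraries stood on either side of them.

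psmd4a, one of the genes for the ubiquitin receptor of the regulatory particle, made up 6.76%, 27.7% and 18.98% of the counts of psmd4a and psmd4b in the morpholino libraries, against 21.4%, 33.0% and 34.6% in the controls. The lowest of these values has an exact 95% interval of 4.38% to 9.89%. The groups overlapped at one library each, morpholino replicate 2 and control replicate 1. psmd4a also overlaps PSMD4, a second Ensembl row on the same strand with 0 counts in all 6 libraries.

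psma6a held a larger share than psma6b in every library, with 67.4%, 64.2% and 77.9% of their counts in the morpholino libraries, against 66.2%, 64.1% and 71.4% in the controls. psma6b shares bases with nfkbiaa on the opposite strand. nfkbiaa had 140, 6483 and 14681 counts in the morpholino libraries, against 1655, 4314 and 4260 counts in the controls. The effect of this overlap on the share was not tested. psmd11a and psmd11b, which code for a lid subunit, were near equal, with psmd11a at 57.0%, 47.9% and 56.8% in the morpholino libraries, against 51.0%, 46.1% and 64.2% in the controls. psme4a was the minor copy throughout, at 0%, 1.44% and 4.45% of the counts of psme4a and psme4b in the morpholino libraries, against 18.1%, 3.25% and 1.91% in the controls. Its 0 of 131 counts in morpholino replicate 1 has an exact 95% upper limit of 2.78%.

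For some subunits, second rows that match the gene in position or name held counts, a comparison made after the values were seen. No sequence was compared, so whether both rows stand for the same gene was not tested. The tables hold unnamed models on alternate scaffolds of GRCz11, and 7 of them match a proteasome gene in chromosome, strand and position. A match had both ends within 5000 bases and a span within 500 bases of the gene's. An unnamed model on an alternate scaffold of chromosome 11 lies within 300 bases of both ends of psma5. It had 26, 709 and 502 counts in the morpholino libraries, against 79, 267 and 24 counts in the controls. In CPM this came to 13.7, 65.3 and 47.9 in the morpholino libraries, against 9.17, 32.2 and 3.85 in the controls, with a log2 fold change of 1.49 ± 0.96 (SE), an unadjusted p of 0.140 and an adjusted p of 0.9999 in edgeR. Morpholino replicates 2 and 3 were above all controls, and morpholino replicate 1 lay within them.

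The model that matches psmb5, on an alternate scaffold of chromosome 2, took more counts than psmb5 itself in every library. It had 106, 1506 and 903 counts in the morpholino libraries, against 577, 1048 and 842 counts in the controls. Joined with the named row, psmb5 reached 59.0, 194 and 122 CPM in the morpholino libraries, against 105, 168 and 163 CPM in the controls, with a log2 fold change of -0.21 ± 0.52 (SE). The joined groups still overlapped, and morpholino replicate 1 remained the lowest.

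For psme1, the matching model on chromosome 24 had 5, 86 and 2 counts in the morpholino libraries, against 24, 184 and 31 counts in the controls, a log2 fold change of -1.47 ± 1.76 (SE). psme2, the partner of psme1 in the activator, also had its highest value in control replicate 2. The models for psmc6, psme3 and psmd10 had no counts.

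psmd2, a base subunit that binds ubiquitin receptors, has a second Ensembl row named PSMD2 on another scaffold. PSMD2 had 439, 1071 and 932 counts in the morpholino libraries, against 1014, 617 and 230 counts in the controls, while psmd2 had 1, 316 and 610 counts in the morpholino libraries, against 399, 234 and 97 counts in the controls. In morpholino replicate 1 the named row was thus nearly empty while the second row held 231 CPM, the highest of the 6 libraries. Joined, they reached 232, 128 and 147 CPM in the morpholino libraries, against 164, 103 and 52.4 CPM in the controls, with a log2 fold change of 0.66 ± 0.52 (SE), beside -0.03 ± 1.05 for the named row alone. psmc4, an ATPase, has a matching model with 19, 464 and 403 counts in the morpholino libraries, against 341, 227 and 148 counts in the controls, and its joined log2 fold change was 0.41 ± 0.49 (SE).

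With all such rows joined, 50 of the 57 genes were tested, 0 were called in edgeR, the smallest unadjusted p was 0.140 and the median log2 fold change was 0.11. Whether the division between the rows follows the haplotypes of the fish was not tested.

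**Figure D5:**
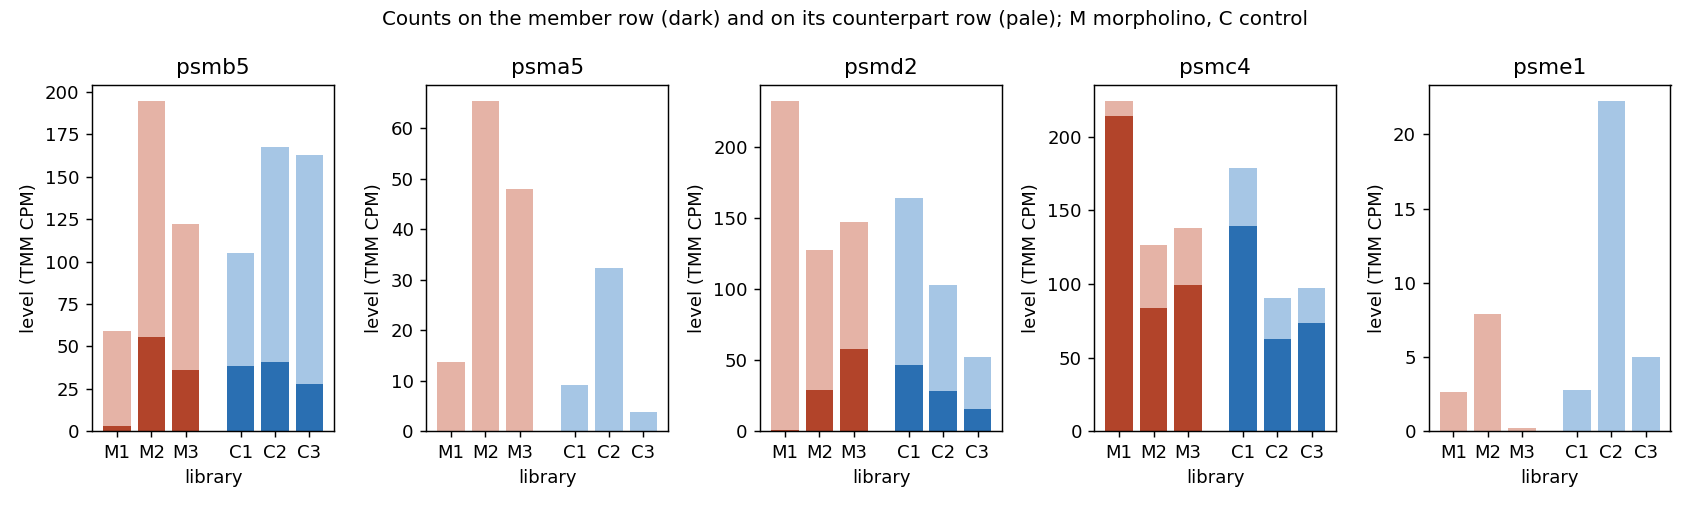
CPM as bars from 0 in each library, morpholino (M) left of control (C), of 5 proteasome genes (psmb5, psma5, psmd2, psmc4 and psme1) split into the named row (dark) and a second row (pale). The second row matches the named row in position or, for psmd2, in name on another scaffold. The second row carries all counts of psma5 and psme1 and more counts than the named row for psmb5 and psmd2 in every library.

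Genes that act with the proteasome did not pass the test either. Of 8 tested genes for other subunits and for assembly or import, 0 were called, 2 had positive and 6 negative log2 fold changes, with a median of -0.31. pomp, which matures the core, measured 73.3, 128 and 58.5 CPM in the morpholino libraries, against 123, 114 and 186 CPM in the controls, a log2 fold change of -0.70 ± 0.51 (SE). akirin2, which in human cells carries proteasomes into the nucleus, measured 276, 192 and 131 CPM in the morpholino libraries, against 126, 193 and 151 CPM in the controls. Both overlapped between the groups.

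Of 11 tested genes that in mammals control proteasome transcription, 0 were called, 6 had positive and 5 negative log2 fold changes, with a median of 0.18. nfya, a subunit of the CCAAT-binding factor, measured 215, 99.1 and 91.8 CPM in the morpholino libraries, against 166, 101 and 88.2 CPM in the controls. nfyba, another of its subunits, measured 33.7, 118 and 68.4 CPM in the morpholino libraries, against 86.1, 96.9 and 78.5 CPM in the controls.

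Ubiquitin supply, with 7 tested genes, had 2 positive and 5 negative log2 fold changes and a median of -0.32. ubc, a polyubiquitin gene, measured 1095, 1450 and 1115 CPM in the morpholino libraries, against 1694, 1557 and 1303 CPM in the controls, with overlapping groups and a log2 fold change of -0.32 ± 0.41 (SE). Ubiquitin delivery, with 12 tested genes, had 3 positive and 9 negative values and a median of -0.07. vcp, the segregase that unfolds ubiquitinated proteins, measured 556, 381 and 310 CPM in the morpholino libraries, against 352, 294 and 234 CPM in the controls, with a log2 fold change of 0.50 ± 0.44 (SE). zfand5b measured 346, 265 and 354 CPM in the morpholino libraries, against 326, 408 and 256 CPM in the controls. None of these genes was called, and each named one overlapped between the groups.

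Of 13 tested heat shock and protein stress genes, 0 were called, 2 had positive and 11 negative log2 fold changes, with a median of -0.33. hsp70l, an inducible chaperone, measured 4270, 14652 and 3429 CPM in the morpholino libraries, against 9743, 37243 and 6006 CPM in the controls, a log2 fold change of -1.25 ± 0.74 (SE). hsp90aa1.2 measured 4724, 12122 and 5479 CPM in the morpholino libraries, against 7841, 17619 and 6409 CPM in the controls. For both, the second replicate was the highest of each group and the groups overlapped.

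The antigen presentation genes, which in mammals receive the peptides of the inducible proteasome, were sparse. Of 14 genes, 7 passed the filter and 0 were called, with 2 positive and 5 negative values and a median of -0.50. b2ml, a beta-2-microglobulin gene, measured 48.5, 33.6 and 135 CPM in the morpholino libraries, against 84.5, 59.1 and 43.0 CPM in the controls. mhc1zba, an MHC class I gene, measured 0, 30.5 and 53.1 CPM in the morpholino libraries, against 14.9, 36.7 and 37.2 CPM in the controls. Of 8 tested interferon signalling genes, 0 were called, with 5 positive and 3 negative values and a median of 0.14. stat1a, a transducer of interferon signals, measured 49.0, 84.9 and 172 CPM in the morpholino libraries, against 122, 113 and 145 CPM in the controls, and irf8 measured 16.3, 41.4 and 84.2 CPM in the morpholino libraries, against 14.6, 24.3 and 37.8 CPM in the controls. Each of these 4 genes overlapped between the groups. Of the 7 tested antigen presentation genes, 1 had every morpholino library above every control and 1 below, beside 2.09% and 5.35% of all rows. b2m measured 8.44, 12.4 and 10.7 CPM in the morpholino libraries, against 8.36, 5.68 and 0.962 CPM in the controls. erap1a measured 0, 1.93 and 12.3 CPM in the morpholino libraries, against 12.5, 21.0 and 12.5 CPM in the controls.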

How the data were processed

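Raw read counts and FPKM values per gene were deposited by the authors, 1 table per library, per the file headers. The submitters' processing notes name Trimmomatic, HISAT2 2.0.5, HTSeq, edgeR, DESeq2 1.16.1 and GRCz11, with no role or order. No source used says whether strand was used, how overlapping genes or reads with several positions were treated, or which lengths stand behind the deposited FPKM. Of the proteasome genes, 19 overlap another Ensembl gene.

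Counts were filtered with filterByExpr (minimum count 10), scaled by TMM and tested with edgeR 4.0.16 under R 4.3.3 (robust quasi-likelihood, 1 term for the group). Benjamini-Hochberg adjustment covered every row tested, with a threshold of 0.05. Groups and replicates came from the titles. The SE was approximated from the F statistic, as the size of the log2 fold change over the root of F. Total counts ranged from 1629804 to 12093109. Single genes were ranked by level in FPKM. Shares of duplicated pairs used counts, and median levels of sets of genes and level classes used CPM, neither corrected for length.

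The genes and lists were chosen with earlier results of these data known. The rule for named genes took, per role, the 2 most abundant per length, all inducible, activator, inhibitor and duplicated genes, those of smallest p or largest fold change, and the 2 most abundant of each list. One gene that the rule takes is not reported here. Genes under 0.25 times their median in morpholino replicate 1, second rows, psmd1, psmd5, psmd7, psmd10, psmc6, psma2, psmb3 and tap2a were chosen after their values were seen. Alternatives were DESeq2 1.42.0, limma-voom in limma 3.58.1, other scalings and filters, a replicate block and leaving out libraries. Code was tested on simulated data.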

Additional observations from a re-analysis of the deposited data

How the results depend on the processing

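No proteasome gene was called under any of the alternatives run. The count of all rows called, 0 with edgeR, was 12 with DESeq2 and 2 with no filter on low counts, and ranged from 0 to 2 when each library was left out in turn (1 without control replicate 1, 2 without morpholino replicate 3). The median log2 fold change of the tested proteasome genes, 0.09, ranged from -0.25 to 0.32 when each library was left out in turn, and from -0.05 to 0.17 under the other tools, scalings, filters and the removal of the first replicates. The median of all rows tested ranged from -0.37 to -0.03 when each library was left out in turn. Of 475 values of named genes under alternatives, 445 kept their direction and 30 changed sign, and none passed the threshold. With library totals only, the median of all rows tested moved from -0.12 to -0.02.

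With a replicate block the median of the proteasome genes was -0.05, beside -0.30 over all rows tested, and 0 rows were called. Deviations of same-numbered libraries from their group means correlated at 0.135, 0.112 and 0.0139 across all rows. Morpholino replicates 1 and 2 correlated best with the control of the same number. Morpholino replicate 3 correlated best with control replicate 2, at 0.0746. The labels state no pairing, so the main fit has no replicate term. These values do not settle whether the libraries are paired.

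Log2 fold changes that changed sign were, for psmg1, -0.016 with Ensembl genes only, -0.019 with a minimum count of 30, -0.0068 with no filter, -0.12 with the replicate block and -0.025 with upper quartile scaling. For psmb6 it was 0.00032 with library totals only. With limma-voom, psmc5 was at -0.019 and psma6b at -0.11. With the first replicate of each group left out, psmd3 was at -0.068, psmb1 at -0.12, psmc2 at 0.10, psmc1a at 0.24 and psme4a at 0.78. With each library left out in turn, the ranges are for psme4a -2.87 to 0.23, psmg1 -0.52 to 0.33, psmb6 -0.49 to 0.25, psme3 -0.13 to 0.52, psmc5 -0.32 to 0.34, psmd9 -1.66 to 0.12, psmc2 -0.54 to 0.11, psmc1a -0.78 to 0.14, psmb1 -0.085 to 0.51, psma6b -0.046 to 0.70, psmd6 -0.21 to 0.25 and psmb7 -0.37 to 0.16. The cause was not tested. Of the 48 tested genes, 20 kept their direction in all 6 such fits, 13 positive and 7 negative. The 7 include psmc3ip and psme3ip1, which are not subunits. Such fits share most of their libraries with the main fit, and the share over all rows was not worked out. Whether the count sets the proteasome genes apart was therefore not tested. In morpholino replicate 1 a count of 0 allows, on counting error alone, up to 1.84 CPM of all counts, without TMM factors.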
